A study of Mus musculus with 6 samples.

Results

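The kinesin genes measured here were the rows of the array table that name a single gene whose symbol is Kif followed by a digit. They numbered 38 genes on 44 rows, out of 19938 genes on 21789 single-gene rows, and 6 of them had more than 1 row. RNA of the whole embryonic mouse brain at day 16.5 of gestation was read on Affymetrix Mouse Gene 1.0 ST arrays, 1 brain to an array. The 3 Tdp2Δ1-3 brains carried a deletion of exons 1 to 3 of Tdp2, the enzyme that frees DNA break ends from trapped topoisomerase II, and the 3 reference brains were wild-type. The sources used here give neither strain, sex nor litter. Tdp2 itself fell by 2.075 on the log2 scale in the Tdp2Δ1-3 brains (limma adjusted p = 0.00035), with values of -1.05, -0.90 and -0.94 in Tdp2Δ1-3 brains and 0.90, 1.10 and 1.34 in wild-type brains. Where its probes lie relative to the deletion is not known here.

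Kinesins are motor proteins that turn ATP into movement along microtubules or into removal of tubulin from their ends. One set works on the spindle of dividing cells, where it separates the poles, aligns chromosomes and builds the midzone for cytokinesis. In embryonic brain, cycling progenitors use that set. Another set carries vesicles, mitochondria and other cargo out along the axons of neurons, which no longer divide. The members were therefore ordered by role, with 12 mitotic genes, 10 axonal transport genes, 5 other transport genes, 6 genes of cilia and centrioles and 5 remaining genes.

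Values were log2 values that the deposited table centres on each row's median over the 6 arrays. A value of 0 is therefore that row's midpoint, and neither levels of different genes nor the presence of brain markers can be read from them. Where the groups of a row do not overlap, centring makes the lowest value of one group and the highest of the other equal in size and opposite in sign. A row was called when limma's moderated test, adjusted by Benjamini-Hochberg over 23410 rows that name a gene, gave an adjusted p under 0.05. By that rule 6.47% of all tested rows and 13 of the 44 kinesin rows were called. By direction, 2.34% of all tested rows were higher and 4.13% were lower in Tdp2Δ1-3 brains. The median difference over all tested rows was 0.01, with the 5th percentile at -0.26 and the 95th percentile at 0.20.

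Most mitotic kinesins rose in the Tdp2Δ1-3 brains, and 2 axonal transport kinesins fell. Of the 13 rows of 12 mitotic genes, 9 rows of 9 genes were higher and none was lower, and the list's median difference was 0.57. Of the 10 axonal transport genes, 2 were lower and none was higher, with a median difference of -0.14. The gap between the medians of the mitotic and the axonal transport list was 0.71. The called share was 69.2% of mitotic rows against 2.34% of all rows in that direction, and 20% of axonal transport rows against 4.13%. These lists were drawn from textbook roles with earlier results of these arrays known, so the shares and medians are given as a description.

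**Figure D1:**
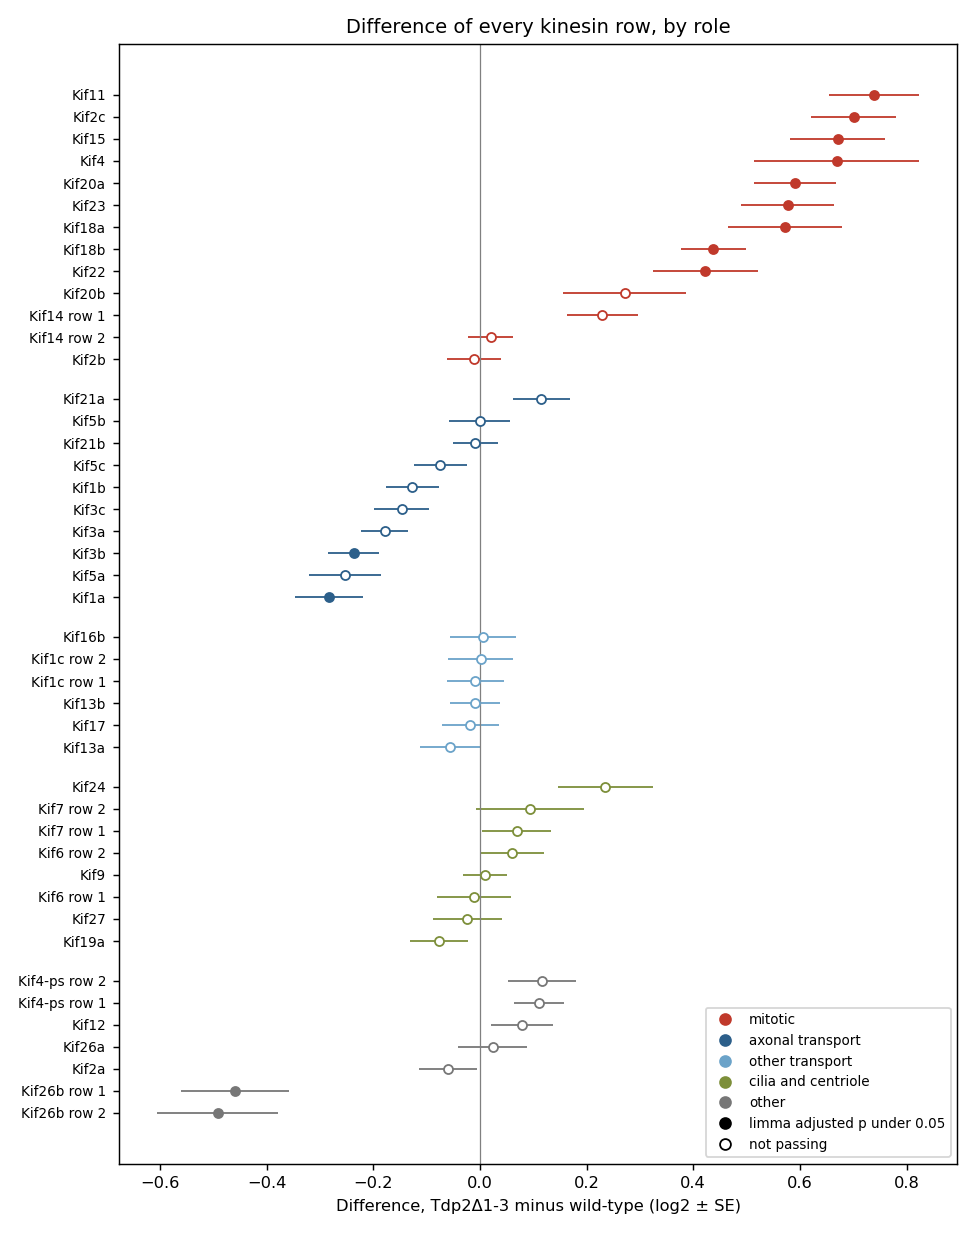
Difference of every kinesin row, Tdp2Δ1-3 minus wild-type, on the log2 scale with limma's standard error (3 arrays per genotype), grouped by role. Filled points passed the limma test at an adjusted p under 0.05. The 9 filled mitotic rows lie between 0.42 and 0.74, and the filled axonal transport rows are Kif3b at -0.24 and Kif1a at -0.28.

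Promoters are shown because 9 of the 12 mitotic kinesin genes were called in the same direction, and the windows of uncalled members were searched as well. Many genes of late cell cycle carry the cell cycle genes homology region, a short element called CHR, close to their start, often with upstream CCAAT boxes. Windows of 250 bases before to 50 bases after the RefSeq start were searched on both strands for TTTGAA, the common CHR hexamer, and for CCAAT, counting each motif separately. A window was matched for 31 of the 38 kinesin genes, 11 of them mitotic and 7 of axonal transport. The called mitotic gene Kif20a and the axonal transport genes Kif5a, Kif5b and Kif21b had no matched window. TTTGAA was present in 9 of 11 mitotic windows (81.8%) and in 0 of 7 axonal transport windows, against 18.1% of 27025 windows of all genes. CCAAT was present in 7 of 11 mitotic windows (63.6%) and 3 of 7 axonal transport windows (42.9%), against 37.9% of all windows. Both motifs were present in 6 mitotic windows (54.5%), against 7.12% of all windows. A match is a description of these letters and was not tested as a site.

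The called genes Kif18a, with neither motif in its window, Kif23 and Kif4 are not printed. The 120 bases before the start are printed below for 5 other called mitotic kinesins and, for contrast, for the 2 called axonal transport kinesins. The stretches are from RefSeq on GRCm38.p6. They read 5′ to 3′ on the strand of the gene, with capitals for the CHR hexamer, for the CCAAT box or for the reverse complement of either. The stretches are chr19:37376262-37376381 on the plus strand for Kif11, chr9:122950961-122951080 on the plus strand for Kif15 and chr7:127042421-127042540 on the minus strand for Kif22. They are chr11:102925125-102925244 on the minus strand for Kif18b and chr4:117178773-117178892 on the minus strand for Kif2c. Those of the transport genes are chr2:153291296-153291415 on the plus strand for Kif3b and chr1:93101875-93101994 on the minus strand for Kif1a.
Kif11: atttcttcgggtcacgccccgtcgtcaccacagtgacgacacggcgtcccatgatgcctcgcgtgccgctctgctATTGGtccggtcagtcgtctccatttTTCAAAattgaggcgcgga
Kif15: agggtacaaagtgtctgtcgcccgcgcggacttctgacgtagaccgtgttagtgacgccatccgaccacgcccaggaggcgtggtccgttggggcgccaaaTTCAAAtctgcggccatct
Kif22: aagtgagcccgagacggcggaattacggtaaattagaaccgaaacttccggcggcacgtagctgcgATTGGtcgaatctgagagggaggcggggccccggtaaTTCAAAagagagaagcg
Kif18b: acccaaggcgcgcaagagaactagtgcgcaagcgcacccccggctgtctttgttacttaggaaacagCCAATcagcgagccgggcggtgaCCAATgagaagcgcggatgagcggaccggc
Kif2c: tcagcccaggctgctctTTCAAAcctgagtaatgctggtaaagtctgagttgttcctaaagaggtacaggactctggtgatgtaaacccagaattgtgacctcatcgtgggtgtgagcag
Kif3b: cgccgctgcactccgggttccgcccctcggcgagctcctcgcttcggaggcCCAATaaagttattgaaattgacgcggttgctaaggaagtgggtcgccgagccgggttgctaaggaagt
Kif1a: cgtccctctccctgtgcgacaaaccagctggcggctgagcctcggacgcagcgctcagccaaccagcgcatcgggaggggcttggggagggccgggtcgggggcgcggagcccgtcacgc
In Kif11 and Kif15 a CHR hexamer began 19 bases before the start, and in Kif22 one began 17 bases before it, each time on the other strand. Kif15 and Kif22 held a second match further upstream, beginning 234 and 215 bases before the start and outside the stretches printed. In Kif11 and Kif22 a CCAAT box lay further upstream, beginning 45 and 54 bases before the start. The hexamer of Kif2c lay 103 bases before the start. Kif18b, Kif23, Kif4 and Kif20b held theirs just after the start, beginning at bases 4, 3, 20 and, for Kif20b, 8 and 14. Kif14 held 1 at 228 bases before the start, and Kif18a and Kif2b held none in this window. Outside the mitotic genes TTTGAA was found in Kif27, which was not called, and in Kif26b, which was called lower. Kif26b held it 9 bases before the start, with a CCAAT box 73 bases before it, and Kif27 held 3 matches and 1 CCAAT box. In genes that work with these motors, TTTGAA was in 12 of 18 windows of mitotic partners (66.7%) and 1 of 22 windows of transport partners (4.55%).

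**Figure D2:**
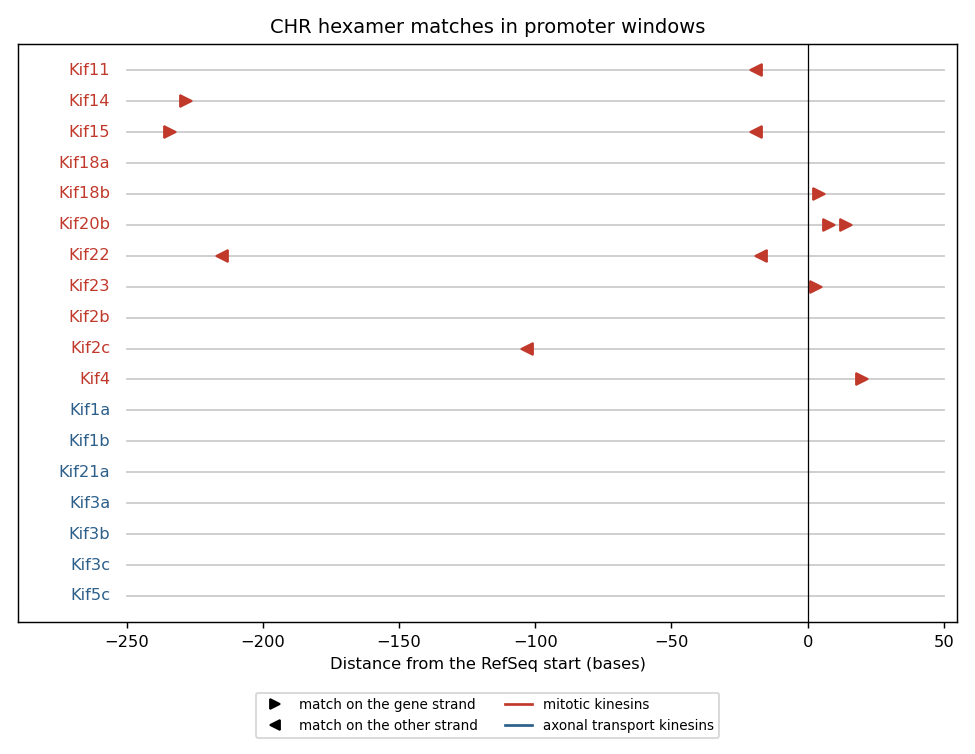
Positions of the CHR hexamer in the promoter windows of 11 mitotic and 7 axonal transport kinesin genes, in bases from the RefSeq start. Each grey line is a window and each triangle a match, pointing right on the strand of the gene and left on the other strand. Matches are seen in 9 of 11 mitotic windows and in 0 of 7 axonal transport windows.

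Motors that hold the spindle poles apart were among the largest rises. Kif11, the plus-end motor that slides antiparallel spindle microtubules apart, had values of 0.26, 0.39 and 0.48 in Tdp2Δ1-3 brains and -0.53, -0.30 and -0.26 in wild-type brains. Every Tdp2Δ1-3 brain lay above every wild-type brain, and the lowest in each genotype was replicate 1. The rise of Kif11 was 0.74 ± 0.08 (SE, with 3 brains of each genotype), or 1.67-fold (adjusted p = 0.0062 in the limma fit). Kif15, a motor that helps to keep the poles apart, had 0.21, 0.43 and 0.53 in Tdp2Δ1-3 brains and -0.40, -0.21 and -0.24 in wild-type brains. It rose by 0.67 ± 0.09, 1.59-fold (limma adjusted p = 0.0087), again without overlap of the groups. The call of Kif11 held with any 1 array left out, while that of Kif15 was lost without Tdp2Δ1-3 replicate 2, with a difference of 0.65 and an adjusted p of 0.058.

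Of the 4 mitotic kinesins that act at microtubule ends, Kif2c, Kif18a and Kif18b rose and Kif2b was not called. Kif2c, which takes tubulin off microtubule ends and corrects faulty kinetochore attachments, had 0.26, 0.37 and 0.48 in Tdp2Δ1-3 brains and -0.48, -0.26 and -0.26 in wild-type brains. It rose by 0.70 ± 0.08, 1.62-fold (limma adjusted p = 0.0062), and the call held with any 1 array left out. Kif18a, which damps the oscillation of chromosomes at the metaphase plate, had 0.13, 0.37 and 0.39 in Tdp2Δ1-3 brains and -0.50, -0.19 and -0.13 in wild-type brains. Its spread was wider than that of Kif2c, since both replicates 1 lay well below the other brains of their genotype. Kif18a rose by 0.57 ± 0.11 (limma adjusted p = 0.022). Without Tdp2Δ1-3 replicate 2 or 3 or wild-type replicate 2 the adjusted p of Kif18a was 0.11, 0.078 and 0.070. Kif18b, a close relative that limits the length of astral microtubules, had 0.14, 0.32 and 0.20 in Tdp2Δ1-3 brains and -0.26, -0.14 and -0.25 in wild-type brains. It rose by 0.44 ± 0.06 (limma adjusted p = 0.0098), a smaller rise with a smaller standard error, and lost its call without Tdp2Δ1-3 replicate 2 (adjusted p of 0.055). Kif2b, a relative of Kif2c studied on kinetochores of human cells, had a difference of -0.01 (95% interval -0.13 to 0.11) and is the mitotic kinesin with a value below 0.

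The chromokinesins, which bind chromosome arms, rose with a wider spread. Kif4, which also sets the length of the midzone, had 0.09, 0.37 and 0.45 in Tdp2Δ1-3 brains and -0.71, -0.31 and -0.09 in wild-type brains. The groups did not overlap, but wild-type replicate 1 lay far below the other wild-type brains. Kif4 rose by 0.67 ± 0.15 (limma adjusted p = 0.044), and without wild-type replicate 1 its difference was 0.50 (adjusted p of 0.068). Without Tdp2Δ1-3 replicate 2 or 3 or wild-type replicate 2 its adjusted p was 0.17, 0.14 and 0.13. Kif4 lies on the X chromosome, and no source used here gives the sex of the embryos. The 2 rows of its pseudogene Kif4-ps, on chromosome 12, had differences of 0.11 and 0.12 (limma adjusted p = 0.22 and 0.36), and signal from the gene and from its pseudogene may not be fully separate on these probes. Kif22, which pushes chromosome arms toward the metaphase plate, had 0.06, 0.33 and 0.37 in Tdp2Δ1-3 brains and -0.33, -0.13 and -0.06 in wild-type brains. The groups of Kif22 were separated by a narrow gap. It rose by 0.42 ± 0.10 (limma adjusted p = 0.045), a call that held in 1 of 6 fits that left out an array, the one without Tdp2Δ1-3 replicate 1. In the other 5 the adjusted p ran from 0.055, without wild-type replicate 3, to 0.18, without Tdp2Δ1-3 replicate 2.

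The motors of the central spindle and cytokinesis split into called and uncalled members. Kif20a, which brings the Aurora B complex to the midzone, had 0.20, 0.30 and 0.39 in Tdp2Δ1-3 brains and -0.44, -0.24 and -0.20 in wild-type brains. Kif20a rose by 0.59 ± 0.08 (limma adjusted p = 0.0087). Kif23, the motor of the centralspindlin complex, had 0.17, 0.36 and 0.39 in Tdp2Δ1-3 brains and -0.44, -0.19 and -0.17 in wild-type brains. In both genes every Tdp2Δ1-3 brain was above every wild-type brain. Kif23 rose by 0.58 ± 0.09 (limma adjusted p = 0.012), and without Tdp2Δ1-3 replicate 2 the adjusted p was 0.058 for Kif20a and 0.068 for Kif23. Kif20b, a cytokinesis motor whose loss in mice gives a small brain, had -0.06, 0.30 and 0.29 in Tdp2Δ1-3 brains and -0.29, 0.00 and 0.00 in wild-type brains. Its groups overlapped, because Tdp2Δ1-3 replicate 1 lay below wild-type replicates 2 and 3. The difference of Kif20b was 0.27 ± 0.12 (limma adjusted p = 0.22), and 0.39 (adjusted p of 0.041) without Tdp2Δ1-3 replicate 1. It was 0.175 (adjusted p of 0.42) without wild-type replicate 1, and 0.21 without Tdp2Δ1-3 replicate 2 or 3 (adjusted p of 0.53 and 0.49). Kif14, a midbody motor that binds citron kinase, was measured on 2 rows. The row with 4 accessions had 0.05, 0.30 and 0.13 in Tdp2Δ1-3 brains and -0.05, -0.06 and -0.09 in wild-type brains, a difference of 0.23 ± 0.07 (limma adjusted p = 0.083). The row with 1 accession had a difference of 0.02 (95% interval -0.08 to 0.12).

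**Figure D3:**
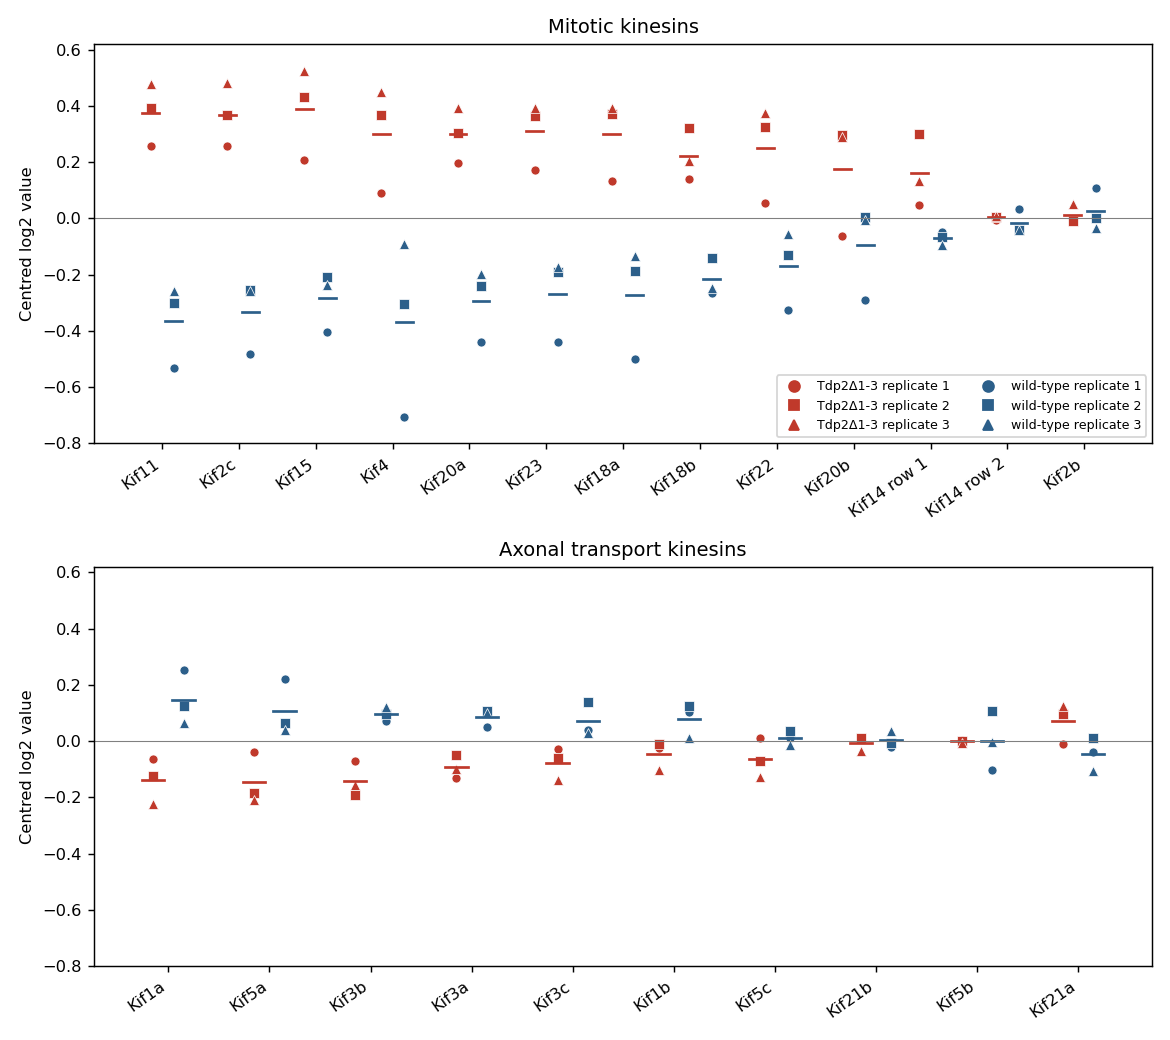
Centred log2 value of each mitotic row (upper panel) and each axonal transport gene (lower panel) in every array, with Tdp2Δ1-3 arrays left of wild-type arrays, marker shape for the replicate number and short lines for group means. The group means of Kif11 are 0.38 and -0.36, and those of Kif3b are -0.14 and 0.10.

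Among the axonal transport motors, Kif1a and Kif3b fell. Kif1a, the carrier of synaptic vesicle precursors, had -0.06, -0.12 and -0.22 in Tdp2Δ1-3 brains and 0.25, 0.12 and 0.06 in wild-type brains. The groups did not overlap, and Tdp2Δ1-3 replicate 1 and wild-type replicate 3 lay closest together. Kif1a fell by 0.28 ± 0.06 (SE, with 3 brains of each genotype), and was 1.22-fold lower (adjusted p = 0.042 in the limma fit). Kif3b, which pairs with Kif3a in the kinesin-2 motor of axons and cilia, had -0.07, -0.19 and -0.16 in Tdp2Δ1-3 brains and 0.07, 0.10 and 0.12 in wild-type brains. Here the wild-type brains were close together and all above the Tdp2Δ1-3 brains. Kif3b fell by 0.24 ± 0.05, 1.18-fold lower (limma adjusted p = 0.028). Both calls are fragile. That of Kif1a was lost without wild-type replicate 1 or 2 or Tdp2Δ1-3 replicate 2 or 3, with adjusted p between 0.094 and 0.14. That of Kif3b was kept only without Tdp2Δ1-3 replicate 1, and with any other array left out its adjusted p lay between 0.057 and 0.125. In the fits leaving out 1 array that lost either call, 0.619% to 4.98% of all tested rows were called, against 6.47% in the main fit.

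The other Kif3 genes, Kif3a and Kif3c, had differences below 0 that did not pass. Kif3a had -0.13, -0.05 and -0.10 in Tdp2Δ1-3 brains and 0.05, 0.11 and 0.10 in wild-type brains. All Tdp2Δ1-3 brains lay below all wild-type brains. The difference of Kif3a was -0.18 ± 0.04 with a limma adjusted p of 0.052, just outside the threshold. It passed with array medians set equal, cyclic loess or array weights (adjusted p of 0.047, 0.034 and 0.0105). With any 1 array left out Kif3a did not pass (adjusted p between 0.078 and 0.18), nor did it with all rows tested (adjusted p of 0.064). Kif3c, a neuronal partner of Kif3a, had -0.03, -0.06 and -0.14 in Tdp2Δ1-3 brains and 0.04, 0.14 and 0.03 in wild-type brains, a difference of -0.15 (limma adjusted p = 0.14). Kifap3, the subunit that links kinesin-2 to its cargo, had -0.08, -0.14 and -0.17 in Tdp2Δ1-3 brains and 0.08, 0.16 and 0.15 in wild-type brains. It fell by 0.26 ± 0.05 (limma adjusted p = 0.019), so that Kif3b and Kifap3 passed and Kif3a and Kif3c did not. The call of Kifap3 was lost without Tdp2Δ1-3 replicate 2 or 3 or wild-type replicate 2 or 3, with adjusted p between 0.051 and 0.097.

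The conventional kinesin heavy chains, which carry mitochondria and vesicles, differed in their values. Kif5a, found mainly in neurons, had -0.04, -0.19 and -0.21 in Tdp2Δ1-3 brains and 0.22, 0.06 and 0.04 in wild-type brains, a difference of -0.25 ± 0.07 (limma adjusted p = 0.067). Its groups did not overlap, but replicate 1 of each genotype stood above the other brains of that genotype. Without Tdp2Δ1-3 replicate 1 the difference of Kif5a was -0.31 (adjusted p of 0.030), in a fit that called 10.7% of all tested rows. With any other array left out Kif5a did not pass, with adjusted p between 0.079 and 0.23. Its difference was -0.196 without wild-type replicate 1. Kif5c, also mainly neuronal, had 0.01, -0.07 and -0.13 in Tdp2Δ1-3 brains and 0.01, 0.03 and -0.01 in wild-type brains, a difference of -0.07 (95% interval -0.19 to 0.04). Kif5b, the form found in most cell types, had 0.00, 0.00 and -0.01 in Tdp2Δ1-3 brains and -0.10, 0.11 and 0.00 in wild-type brains. Its difference was -0.00076 (95% interval -0.13 to 0.13), and the wild-type brains spread wider than the Tdp2Δ1-3 brains. The rows of Kif5a and Kif5c list 1 accession in common, so their values may share transcripts. Whether the 3 heavy chains differ from each other was not tested.

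Kif1b, which carries mitochondria and synaptic vesicle precursors, had -0.03, -0.01 and -0.10 in Tdp2Δ1-3 brains and 0.10, 0.13 and 0.01 in wild-type brains. The difference of -0.13 ± 0.05 did not pass (limma adjusted p = 0.19), although the groups did not overlap. The paired relatives Kif21a and Kif21b slow microtubule growth in axons and dendrites. Kif21a had the only difference above 0 among these 10 genes, 0.12 (95% interval -0.01 to 0.24), and Kif21b had -0.01 (95% interval -0.10 to 0.09). In all, 6 of the 10 genes had Tdp2Δ1-3 brains wholly below wild-type brains, where 12.6% of all tested rows did, and 10 of 13 mitotic rows had them wholly above, where 13.1% of all tested rows did.

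The 5 other transport kinesins had differences between -0.06 and 0.01 on 6 rows, and none passed, all with overlapping groups. Kif13a and Kif13b, which move vesicles from the Golgi and toward the plasma membrane, had -0.06 (95% interval -0.19 to 0.08) and -0.01 (95% interval -0.12 to 0.10). Kif16b, a carrier of early endosomes, had 0.01 (95% interval -0.14 to 0.15), and Kif17, which carries NMDA receptor subunits in dendrites, had -0.02 (95% interval -0.14 to 0.10). Both rows of Kif1c, a motor of Golgi and vesicle traffic, had intervals within -0.14 to 0.14.

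Genes of cilia and centrioles likewise had no called member on 8 rows, with differences between -0.08 and 0.24. The highest was Kif24, a centriolar kinesin that restrains the growth of cilia. Its values were -0.01, 0.33 and 0.11 in Tdp2Δ1-3 brains and -0.19, 0.01 and -0.09 in wild-type brains, with overlap between Tdp2Δ1-3 replicate 1 and wild-type replicate 2. The difference of Kif24 was 0.24 ± 0.09 (limma adjusted p = 0.17), and 0.24 (adjusted p of 0.032) with the replicate number as a block. Without Tdp2Δ1-3 replicate 2 it was 0.14 (adjusted p of 0.44), and it did not pass with any 1 array left out. Kif7, which works in Hedgehog signalling at the tip of the cilium, had 0.07 and 0.09 on its 2 rows (limma adjusted p = 0.62 and 0.67). The other genes of cilia were Kif6, Kif9, Kif19a and Kif27, whose rows ran from -0.08 to 0.06.

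Of the remaining members Kif26b fell furthest, on both of its rows. Kif26b is an unusual kinesin without motor activity that acts in the development of the kidney and other tissues. One row had -0.08, -0.26 and -0.45 in Tdp2Δ1-3 brains and 0.17, 0.34 and 0.08 in wild-type brains, and the other had -0.08, -0.30 and -0.52 in Tdp2Δ1-3 brains and 0.35, 0.13 and 0.08 in wild-type brains. In both rows Tdp2Δ1-3 replicate 1 lay closest to the wild-type brains and Tdp2Δ1-3 replicate 3 farthest from them. Kif26b fell by 0.46 ± 0.10 and 0.49 ± 0.11 (limma adjusted p = 0.039 and 0.044), and since the rows list 2 accessions in common they are not independent. Without wild-type replicate 1 or 2 or Tdp2Δ1-3 replicate 2 or 3 neither row passed, with adjusted p between 0.086 and 0.16. Without wild-type replicate 3 one row passed and the other had an adjusted p of 0.062. Its close relative Kif26a had a difference of 0.02 (95% interval -0.13 to 0.17). Kif2a, which trims microtubules at spindle poles and in axon branches, had -0.06 (95% interval -0.19 to 0.06), and Kif12 had 0.08 (95% interval -0.06 to 0.21).

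Most genes of proteins that work with the mitotic kinesins rose. Of 22 listed partners 21 were measured, 16 were higher and none was lower, against 2.34% higher among all tested rows, with a median difference of 0.50. The largest rises were in Nusap1, a spindle microtubule protein, by 0.69, in the contractile ring gene Anln by 0.64 and in Ect2, the exchange factor that starts cytokinesis, by 0.62. Hmmr and Tpx2, which help to assemble the spindle, rose by 0.62 and 0.58, and Cep55, an abscission factor, rose by 0.58. The call of Cep55 held with any 1 array left out, and those of Ect2, Hmmr and Tpx2 were lost without Tdp2Δ1-3 replicate 2. The call of Nusap1 was lost without replicate 2 of either genotype. That of Anln was lost without Tdp2Δ1-3 replicate 2 or 3 or wild-type replicate 2, with limma adjusted p between 0.085 and 0.14. Cenpe, the kinetochore motor whose symbol lacks the Kif stem, rose by 0.58 ± 0.10 (limma adjusted p = 0.015). Racgap1, the partner of Kif23 in centralspindlin, had 0.40 with a limma adjusted p of 0.056, and Cit, citron kinase, had the only value below 0, at -0.12 (limma adjusted p = 0.33). The count of higher partners was 1 without Tdp2Δ1-3 replicate 2, 10 without Tdp2Δ1-3 replicate 3 and 8 without wild-type replicate 2. In those fits 0.619%, 2.55% and 1.43% of all tested rows were called in either direction.

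Cargo adaptors, light chains and dynein subunits gave fewer calls. Of 34 listed transport partners 29 were measured, 4 were lower and none was higher (13.8% lower, against 4.13% of all tested rows), with a median difference of -0.08. Dync1i1, the neuronal intermediate chain of cytoplasmic dynein, which moves cargo back toward the cell body, had -0.58, -0.37 and -0.28 in Tdp2Δ1-3 brains and 0.28, 0.35 and 0.43 in wild-type brains. All Tdp2Δ1-3 brains lay far below all wild-type brains. Dync1i1 fell by 0.76 ± 0.08 (limma adjusted p = 0.0050), further than any axonal kinesin listed here, and the call held with any 1 array left out. Kifc2, a neuronal motor of the minus-end-directed branch of the family, fell by 0.48 ± 0.09 (limma adjusted p = 0.024). Ppfia2, a liprin that binds Kif1a, fell by 0.30 (limma adjusted p = 0.019). The calls of Kifc2 and Ppfia2 were lost without Tdp2Δ1-3 replicate 2 or 3 or wild-type replicate 1 or 2. There the limma adjusted p lay between 0.070 and 0.11 for Kifc2 and between 0.055 and 0.087 for Ppfia2. The light chains Klc1 and Klc4 had -0.06 and 0.06, and the other dynein subunits measured, Dync1h1, Dync1i2, Dync1li1 and Dync1li2, ran from -0.10 to 0.05 without passing. The count of lower transport partners was 8 without Tdp2Δ1-3 replicate 1, 1 without Tdp2Δ1-3 replicate 2 or 3 or wild-type replicate 2, and 2 without wild-type replicate 1. Of all tested rows, 10.7%, 0.619%, 2.55%, 1.43% and 3.1% were called in those fits in either direction, in that order.

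Several lists of cell type markers held called genes, where 2.34% of all tested rows were higher and 4.13% were lower. Of 9 rows of 7 cycling-cell genes, none of them a kinesin, 8 were higher, with a median difference of 0.56 beside 0.57 for the mitotic kinesins. The 2 rows of Pcna had nearly the same values, with differences of 0.364 and 0.369. Top2a had 0.72 on a called row and 0.04 on the row not called. The list medians of cycling-cell genes ran from 0.18 to 0.30 in Tdp2Δ1-3 brains and from -0.355 to -0.18 in wild-type brains. Those of the mitotic kinesins were 0.13, 0.33 and 0.39 in Tdp2Δ1-3 brains and -0.405, -0.19 and -0.13 in wild-type brains. All 5 rows of intermediate progenitor genes were higher (median 0.51), and of 7 radial glia rows 2 were (median 0.15). Another 3 radial glia rows lay below 0 without passing, Slc1a3 at -0.26, Fabp7 at -0.08 and Hes5 at -0.07. Of 10 maturing-neuron genes 4 were lower (median -0.32), with list medians of -0.04, -0.23 and -0.35 in Tdp2Δ1-3 brains and 0.19, 0.13 and 0.05 in wild-type brains. Medians of the axonal transport kinesins were -0.03, -0.05 and -0.12 in Tdp2Δ1-3 brains and 0.05, 0.10 and 0.03 in wild-type brains. Tubb3, Dcx and Map2, also neuronal, had -0.03, -0.03 and -0.04 and did not pass. Of the other lists, 2 of 4 oligodendrocyte genes were lower, 2 of 5 red cell genes were higher, 1 of 5 meningeal genes was lower and 0 of 4 genes of ciliated cells and choroid plexus were called. Hbb-y and Hba-x, globins of embryonic red cells, rose by 3.79 and 1.44 (limma adjusted p = 5.4e-06 and 0.00035), more than any kinesin. The rest of the red cell list did not pass. Hbb-bh1, also an embryonic globin, had 0.135, Slc4a1 had 0.07 and Alas2 had -0.07 (limma adjusted p = 0.13, 0.51 and 0.78). The part of these cell types in the kinesin differences was not tested, and in whole brain fewer cells of a type and less RNA per cell cannot be told apart.

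**Figure D4:**
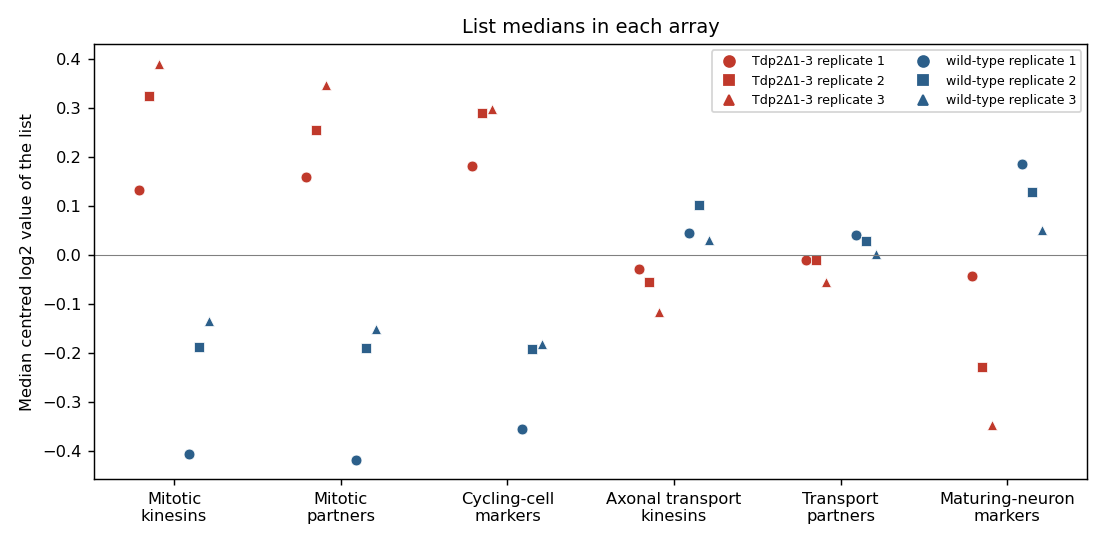
Median centred log2 value of 6 gene lists in each array, with Tdp2Δ1-3 arrays left of wild-type arrays and marker shape for the replicate number. The mitotic kinesins, their partners and the cycling-cell markers have Tdp2Δ1-3 medians between 0.13 and 0.39 and wild-type medians between -0.42 and -0.13, and the axonal transport kinesins and maturing-neuron markers lie in the opposite order.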

How the data were processed

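The authors normalized the arrays with Robust Multi-Array Average, per the series text, and deposited log2 values. Affymetrix Expression Console is the tool in the submitters' processing notes. In the deposited table each row's median over the 6 arrays is 0 to within 5e-07, a centring that no source used here describes, so no filter on low values was possible. No source used here gives the array annotation's build or the level of probe summary.

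Of 28856 rows, 21789 named 1 gene, 1621 several and 5446 none. The 23410 rows naming a gene were tested. Current symbols came from a RefSeq table of GRCm38.p6, where 21698 single-gene rows were found by gene identifier. Groups and replicate numbers follow the sample titles, which speak of biological replicates. Tdp2Δ1-3 and wild-type arrays (3 each) were fitted in R 4.3.3 by limma 3.58.1 (lmFit, eBayes, two-sided, Benjamini-Hochberg over all tested rows), which was tested on simulated data. Standard errors and 95% intervals are limma's moderated ones, and the number of arrays limits their precision. List medians carry no test. Figures used matplotlib 3.10.9.

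All members of the mitotic and axonal transport lists are named. Beyond those, called members, the 3 largest uncalled differences of the other kinesins, and up to 6 called partners per list are named by rule. Cenpe, Racgap1, Cit, the light chains and the dynein subunits were named after their values were seen, as were the markers and the remaining kinesins. Members and lists were chosen with earlier results of these data known. Alternatives were the replicate block, each array left out, array medians set equal, cyclic loess, array weights, a robust variance prior, all rows, 1 row per gene, a 1.5-fold limit and other list borders.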

Additional observations from a re-analysis of the deposited data

How the results depend on the processing

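Alternative fits were tabulated for the mitotic and axonal transport kinesins, Kif24, Kif26b, Kif4-ps, Tdp2 and the partners named by rule, and not for single values of the other kinesins. Every called kinesin row kept its sign in all 13 alternative fits. The gap between the mitotic and axonal transport medians ran from 0.574 to 0.791 over all alternatives. The mitotic median ran from 0.438, with Kif2a and Kif24 added, to 0.642, without Tdp2Δ1-3 replicate 1. Leaving out 1 array in turn gave 2 to 16 called kinesin rows against 13, 2 to 11 called mitotic rows against 9 and 0 to 3 called axonal transport genes against 2. It gave 1 to 16 higher mitotic partners against 16 and 1 to 8 lower transport partners against 4. The share of all tested rows called in these fits ran from 0.619% to 10.7%, against 6.47%. The lowest of each of these counts came without Tdp2Δ1-3 replicate 2, where 0.619% of all tested rows were called. The count of 0 axonal transport genes also came without Tdp2Δ1-3 replicate 3, wild-type replicate 1 or wild-type replicate 2. The count of 1 transport partner also came without Tdp2Δ1-3 replicate 3 or wild-type replicate 2. Without Tdp2Δ1-3 replicate 2 the median of the mitotic kinesins was 0.536, and Kif11 and Kif2c passed. The called kinesin rows numbered 6 without Tdp2Δ1-3 replicate 3, 7 without wild-type replicate 1 and 6 without wild-type replicate 2. The shares of all tested rows called in these fits were 2.55%, 3.1% and 1.43%, in that order. With all rows of the table tested, 8 kinesin rows and 1 axonal transport gene were called, and 4.36% of all rows. Array weights gave 20 kinesin rows, 6 axonal transport genes and 9 lower transport partners, with 23.2% of tested rows called. Cyclic loess gave 4 axonal transport genes, with 7.42% of tested rows called. A 1.5-fold limit left 5 kinesin rows, all 5 mitotic, 0 axonal transport genes, 4 mitotic partners and 1 transport partner (background 0.188% higher and 0.453% lower). The narrow transport group of Kif1a, Kif1b and the Kif5 genes held 1 call. The wider group of 15 transport genes had a median of -0.0372. Among the kinesins so tabulated, the sign of 3 uncalled genes turned. With 1 array left out in turn, Kif2b ran from -0.0415 to 0.0297, Kif21b from -0.02 to 0.0072 and Kif5b from -0.0524 to 0.0519. Kif2b was above 0, at 0.0297 without wild-type replicate 1, and Kif5b at 0.00305 without Tdp2Δ1-3 replicate 3 and 0.0519 without wild-type replicate 2. Kif21b was at 0.00253 with array weights, 0.00635 without Tdp2Δ1-3 replicate 3 and 0.0072 without wild-type replicate 3. The cause of these changes was not tested.

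The series text speaks of pairs of brains, but the labels do not say that a replicate number marks one. Deviations of same-numbered brains from their genotype means correlated at 0.209, 0.0472 and 0.198 over 23410 rows, and Tdp2Δ1-3 replicate 2 correlated best with wild-type replicate 3. With the replicate block 16 kinesin rows were called, 10 of them mitotic and 3 of axonal transport. The share of all tested rows called was 10.3%, against 6.47% in the main fit. The new kinesin calls were Kif20b (0.271, adjusted p of 0.015), Kif5a (-0.253, adjusted p of 0.016) and Kif24 (0.235, adjusted p of 0.032).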

Other observations

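Most mitotic kinesin rows had the same lowest brain in each genotype, while the highest wild-type brain varied (replicates 1, 2 and 3 in 3, 4 and 6 of 13 rows). Among Tdp2Δ1-3 brains replicate 1 was the lowest in 12 of 13 mitotic rows, and among wild-type brains replicate 1 was the lowest in 10 of 13. Over the 548 tested rows called higher, the same brains were the lowest in 69.5% and 73.4% of rows, and over all tested rows in 38.9% and 33%. In the axonal transport genes Tdp2Δ1-3 replicate 3 was the lowest in 7 of 10 and wild-type replicate 3 in 6 of 10. Over the 967 tested rows called lower, these brains were the lowest in 69.6% and 59.2%, and over all tested rows in 41.8% and 41%.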
